A study of Mus musculus with 12 samples.

Results

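The genes described here handle glycerol and build triglyceride in subcutaneous white adipose tissue (scWAT), the fat under the skin. They were 10 of the 55401 gene IDs counted in each library and were chosen by function: the glycerol channel Aqp7, the glyceroneogenesis enzyme Pck1, the acyltransferases Gpam, Gpat3, Gpat4 and Agpat2, the phosphatidate phosphatase Lpin1, the diacylglycerol acyltransferases Dgat1 and Dgat2, and the monoacylglycerol acyltransferase Mogat1. All 10 were found by symbol and all 10 had enough counts to be tested. RNA was sequenced from scWAT of 12 female mice, 3 in each of 4 groups, which were wild type (Jmjd1a +/+) or Jmjd1a HY/HY and had been kept at 30°C, the thermoneutral condition, or at 8°C, the cold condition, for 1 week. At the start of the treatment the animals had an age of 16 weeks, and each had first been acclimated to 30°C. The line was made in C57BL/6J eggs. Jmjd1a HY/HY mice carry, in every cell, a knock-in substitution of a histidine by a tyrosine that removes the activity of JMJD1A (also called KDM3A), an enzyme that takes methyl groups off histone H3 lysine 9. The knock-in is therefore not limited to adipocytes, and the tissue was sequenced whole.

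Triglyceride is made by adding fatty acids, activated as acyl-CoA, to glycerol 3-phosphate. The glycerol 3-phosphate comes from glucose, from pyruvate through glyceroneogenesis, or from glycerol that glycerol kinase phosphorylates. In white fat glycerol kinase is scarce and the glycerol freed by lipolysis mostly leaves the cell through AQP7, whereas thermogenic fat breaks down and rebuilds triglyceride at the same time.

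The sense-strand totals lay between 13592629 and 26352081 read pairs, and every library at 8°C (at most 17955584) was smaller than every library at 30°C (at least 18305586). Kdm3a, whose product is altered rather than removed, was called in no comparison and lay between 35.7 and 61.7 CPM (read counts scaled to library size) in all libraries, so its level is no check of the genotype. Summed over 8 adipocyte markers (Adipoq, Plin1 and others), the wild type had 23587 to 44469 CPM at 30°C and 30921 to 38071 CPM at 8°C, and Jmjd1a HY/HY had 22576 to 50610.1 CPM at 30°C and 37339.8 to 49533 CPM at 8°C. The 6 markers of thermogenic adipocytes (Ucp1, Cidea and others) summed to 71.3 to 198, 8330.0 to 9240.4, 60.8 to 231 and 525 to 1665 CPM in the same order. Among the 8 adipocyte markers, Cfd (mean 12467 CPM) and Fabp4 (mean 12293 CPM) had the highest levels in wild type at 30°C and weigh most in the sum. For cold in wild type 2 of the 8 were called lower and none higher, with log2 fold changes from -1.38 to 0.79. The 8 skeletal muscle markers were at most 24.1 CPM in 11 libraries, and at 1335 CPM in replicate 2 of the wild type at 30°C. The 10 mammary epithelium markers summed to 2183 to 3981 CPM in wild type at 30°C and to 592 to 1638 CPM in the other 3 groups, the 8 lymph node markers to 3.72 to 21.6 CPM over all libraries, and the 8 macrophage markers to 206 to 271 CPM in wild type against 280.5 to 494 CPM in the mutant. No adipocyte or thermogenic marker was at 0 in any library, and in the other lists at most 2 were. In bulk tissue fewer cells of a type and less RNA per cell cannot be told apart, and the part of these cell types in the values below was not tested.

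RefSeq (GRCm38.p6, the build the authors name as mm10) gave promoters for 7 of the 10 genes, in 9 entries. The 250 bases before the start are shown for Agpat2, which had the largest cold response, for Mogat1, which is the gene with the lowest level, and for Pck1, which varied most between mice. The windows are chr2:26604418-26604667 (minus strand) for Agpat2, chr1:78510810-78511059 (plus strand) for Mogat1 and chr2:173152823-173153072 (plus strand) for Pck1, and each ends where the annotated gene begins. Capitals mark a match to any of 9 motifs on either strand, and each is written 5′ to 3′.
Agpat2: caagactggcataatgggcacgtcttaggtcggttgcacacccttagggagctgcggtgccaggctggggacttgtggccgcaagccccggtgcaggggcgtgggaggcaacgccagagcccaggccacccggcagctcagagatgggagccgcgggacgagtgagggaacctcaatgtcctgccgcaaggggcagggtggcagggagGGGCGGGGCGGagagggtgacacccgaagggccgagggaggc
Mogat1: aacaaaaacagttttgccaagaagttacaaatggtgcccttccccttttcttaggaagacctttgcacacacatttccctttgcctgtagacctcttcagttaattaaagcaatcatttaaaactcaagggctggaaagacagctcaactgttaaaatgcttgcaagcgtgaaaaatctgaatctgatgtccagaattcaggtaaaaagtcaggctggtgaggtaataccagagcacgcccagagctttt
Pck1: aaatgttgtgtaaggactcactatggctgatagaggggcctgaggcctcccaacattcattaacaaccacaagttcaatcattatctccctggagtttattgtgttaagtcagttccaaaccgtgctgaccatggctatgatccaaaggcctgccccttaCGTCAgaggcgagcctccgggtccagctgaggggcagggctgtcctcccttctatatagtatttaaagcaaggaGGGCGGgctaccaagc
The motifs searched were the nuclear receptor core AGGTCA, its direct repeat AGGTCANAGGTCA, TCAAGGTCA, the cAMP response element TGACGTCA, its core TGACG, the E-box CACGTG, the GC box GGGCGG, the CCAAT box CCAAT and the TATA box TATAAA. The longer of these contain the cores, so a match to AGGTCANAGGTCA or TCAAGGTCA also counts for AGGTCA, and one to TGACGTCA for TGACG. Agpat2 held 2 GC boxes that share a base, Pck1 held 1 TGACG on the minus strand and 1 GC box, and Mogat1 held no match. Over the 9 entries, AGGTCA was found in 4, TGACG in 3, GGGCGG in 4 and CCAAT in 1, against 14%, 17.8%, 32.7% and 33.9% of the 32841 promoters searched. The 2 entries of Aqp7 overlap and share an AGGTCA match, so the entries are not independent. The other 5 motifs were in none of the 9 entries and in 0.0335% (AGGTCANAGGTCA), 0.387% (TCAAGGTCA), 1.55% (TGACGTCA), 6.02% (CACGTG) and 12.4% (TATAAA) of all promoters. These matches describe letters only and say nothing of binding.

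Per kilobase of exon, the genes spanned a wide range of levels. In wild type at 8°C, Agpat2 was at 1180.1 ± 10.6 CPM per kb (SD, n = 3), Dgat2 at 699 ± 15.5 and Pck1 at 574 ± 286, and the spread of Pck1 included the level of Dgat2. Dgat1 followed at 185 ± 10.6 CPM per kb. Gpat4 (77.8 ± 4.63), Aqp7 (75.2 ± 3.89) and Gpam (65.5 ± 1.70) were close in CPM per kb, and the first 2 did not differ beyond their spread. Lpin1 at 50.1 ± 0.812, Gpat3 at 23.3 ± 5.69 and Mogat1 at 17.5 ± 2.08 CPM per kb were the lowest. At 30°C the wild type had Dgat2 at 513 ± 123 CPM per kb, Pck1 at 424 ± 328 and Agpat2 at 288 ± 82.9. The spread of Pck1 included the levels of Dgat2 and Agpat2.

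To ask how cold acts on these genes in normal scWAT, the wild type at 8°C was compared with the wild type at 30°C. Of the 10 genes, 4 rose, Agpat2, Aqp7, Mogat1 and Gpam, and none fell. Calls needed a p under 0.05 from edgeR's quasi-likelihood test, after Benjamini-Hochberg adjustment over all 16540 genes tested, and a fold change above 1.5 or below 0.67. Of all genes tested, 10.3% were called higher and 6.93% lower by these limits. The median log2 fold change of the 10 genes was 0.68, against -0.069 over all genes. In 7 of the 10 the 3 libraries at 8°C all lay above those at 30°C, and 43.4% of all genes had groups that did not overlap in either direction.

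Agpat2, which acylates lysophosphatidate to make phosphatidate and is mutated in a congenital lipodystrophy, was at 598, 445 and 797 CPM in wild type at 30°C and at 2538, 2508 and 2495 CPM at 8°C. All libraries at 8°C lay far above all at 30°C, and they differed among themselves by a coefficient of variation of 0.897%. Its log2 fold change was 2.03 (SE 0.36), a fold of 4.1, with an adjusted p of 0.00225 by edgeR. It was called under all 20 alternative settings, with an adjusted p between 3.83e-08 and 0.0132.

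Aqp7, the channel through which glycerol crosses the adipocyte membrane, was at 103, 96.3 and 158 CPM at 30°C and at 201, 215 and 222 CPM at 8°C in wild type. The groups did not overlap, and the log2 fold change was 0.84 (SE 0.25, adjusted p = 0.0292 by edgeR). Gpam, the mitochondrial enzyme that puts the first acyl chain on glycerol 3-phosphate, was at 218, 211 and 365 CPM at 30°C and at 411, 428 and 408 CPM at 8°C. Replicate 3 at 30°C was closer to the cold libraries than to its own group, and the log2 fold change was 0.65 (SE 0.20, adjusted p = 0.0348 by edgeR). Mogat1, which acylates monoacylglycerol, was at 12.2, 15.2 and 22.9 CPM at 30°C and at 24, 27.4 and 30.5 CPM at 8°C. The lowest cold library was just above the highest warm one, and the log2 fold change was 0.71 (SE 0.21, adjusted p = 0.0297 by edgeR).

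The calls of Aqp7, Gpam and Mogat1 were lost in several fits that left out 1 library. Without replicate 1 or 2 of the wild type at 30°C, the adjusted p of edgeR was 0.0958 or 0.106 for Aqp7, 0.119 or 0.127 for Gpam, and 0.0962 or 0.0987 for Mogat1. Without replicate 1, 2 or 3 at 8°C it was 0.0564, 0.0728 or 0.0845 for Aqp7 and 0.0749, 0.092 or 0.0832 for Gpam, and for Mogat1 it was 0.0739 without replicate 2 and 0.105 without replicate 3. With library totals in place of TMM the median gene shifted to -0.41, and these 3 calls were lost, at log2 fold changes of 0.52, 0.33 and 0.38, or 0.93, 0.74 and 0.79 above that median.

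The other 6 genes were not called in this comparison, but Lpin1 and Gpat4 were under some alternatives, Lpin1 in 5 of 20 (adjusted p from 0.0152 to 0.192 by edgeR or DESeq2) and Gpat4 in 7 of 20 (0.0139 to 0.211). Both were called by DESeq2, without a filter on low counts and in the fit of the compared libraries alone, each of which gave 6 calls. Lpin1, whose product makes diacylglycerol from phosphatidate, was at 169.6, 98.6 and 190.4 CPM at 30°C and at 282, 288 and 291 CPM at 8°C, with no overlap (log2 fold change 0.91, SE 0.32, adjusted p = 0.0604 by edgeR). Gpat4, a glycerol-3-phosphate acyltransferase of the endoplasmic reticulum, was at 142, 157 and 250.4 CPM against 294, 328 and 299 CPM, also with no overlap (log2 fold change 0.75, adjusted p = 0.0731 by edgeR). For both genes the cold libraries lay above all warm ones but replicate 3 at 30°C was the highest of its group. Dgat1, a diacylglycerol acyltransferase of the endoplasmic reticulum, was at 277, 303 and 575 CPM against 529, 572 and 593 CPM, and replicate 3 at 30°C lay within the cold range (adjusted p = 0.14 by edgeR). Dgat2, an unrelated enzyme of the same step, was at 1192, 860.0 and 1411 CPM against 1603, 1584 and 1535 CPM, which did not overlap (log2 fold change 0.45, adjusted p = 0.266 by edgeR).

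Pck1, the cytosolic enzyme that starts glyceroneogenesis from oxaloacetate, varied most. Its level was 628, 1003 and 2735 CPM at 30°C and 885, 2224 and 2798 CPM at 8°C in wild type. The groups overlapped broadly, and the log2 fold change was 0.44 with an interval from -1.02 to 1.89 (adjusted p = 0.668 by edgeR), which includes a 2-fold change in either direction. Gpat3, a further acyltransferase of the endoplasmic reticulum, was at 55.4, 83.3 and 111 CPM at 30°C and at 61.4, 81.8 and 101 CPM at 8°C, with a log2 fold change of -0.03 (interval -0.69 to 0.62, adjusted p = 0.952 by edgeR).

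Replicate 3 of the wild type at 30°C had the highest value of its group in all 10 genes, against 39.8% of all genes tested, and also the highest sum of adipocyte markers, at 44469 CPM against 23587 and 28615. Without it, 7 of the 10 genes were called, with Gpat4, Lpin1 and Dgat1 added at log2 fold changes of 1.04, 1.10 and 0.96. The part of adipocyte content in this was not tested. All 10 genes spread less at 8°C than at 30°C in each genotype, as did 64.7% of all genes in wild type and 66.4% in the mutant. In wild type the median SD of log2 CPM of the 10 genes was 0.45 at 30°C and 0.08 at 8°C, against 0.23 and 0.16 over all genes.

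**Figure D1:**
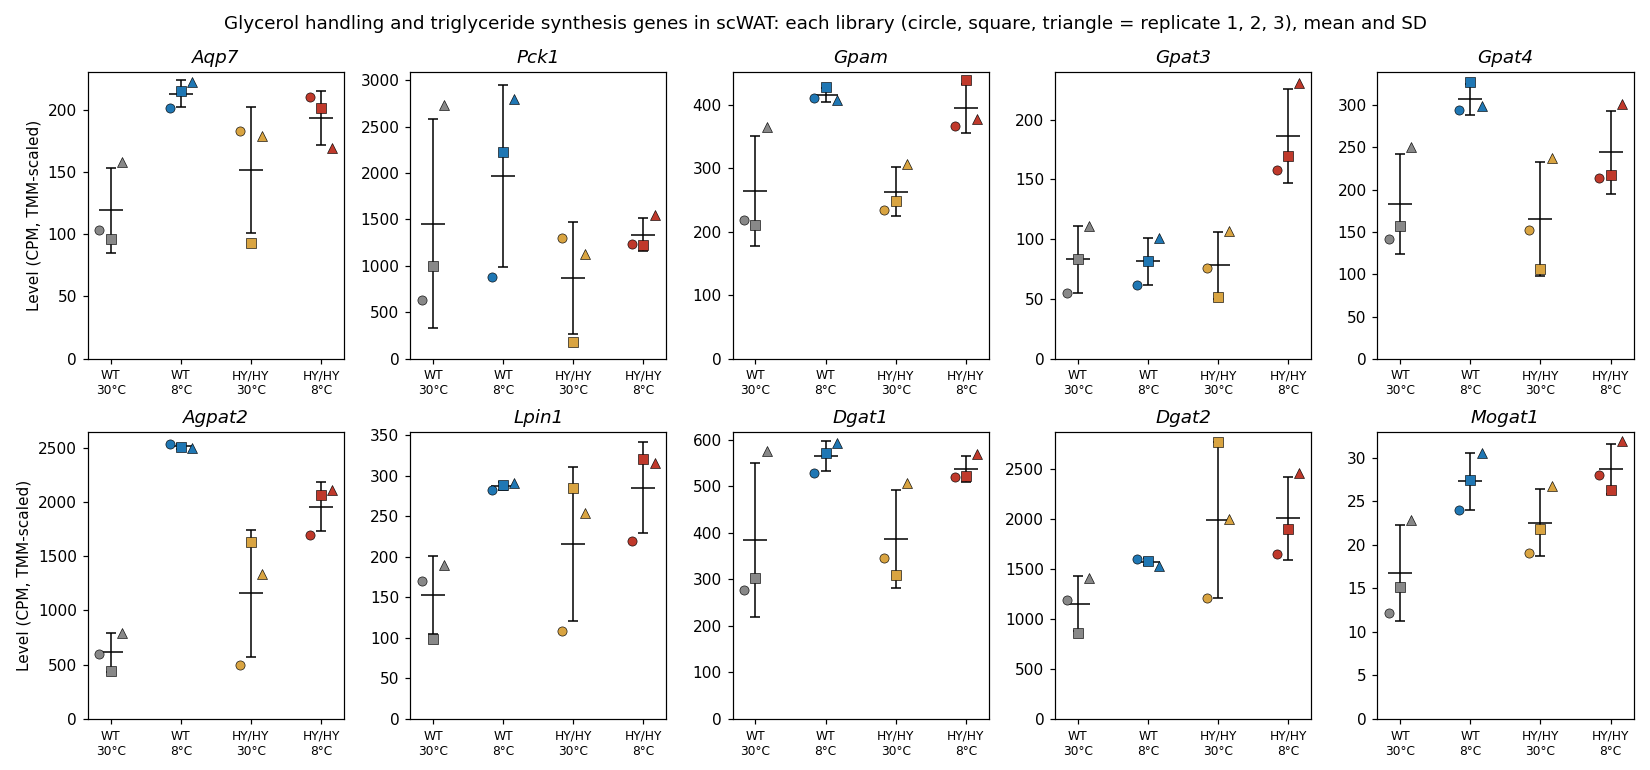
Level of each gene (CPM, TMM-scaled, y axis) in each library of the 4 groups (x axis), with the mean and SD of 3 mice. Agpat2 sits at 2495 to 2538 CPM in wild type at 8°C against 445 to 797 at 30°C, and Gpat3 sits at 158 to 231 CPM in Jmjd1a HY/HY at 8°C against 51.6 to 111 CPM in the other 3 groups.

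To ask whether the cold response depends on the demethylase activity, the same comparison was made in Jmjd1a HY/HY mice. None of the 10 genes was called by edgeR, 2 had an unadjusted p under 0.05 (Gpam and Gpat3), and DESeq2 called 1, Gpat3. Of all genes, 0.181% were called higher and 0.0665% lower in this comparison by edgeR, and DESeq2 called 216 of 16540 higher. The median log2 fold change was 0.52 for the 10 genes and -0.015 for all genes, and 4 of the 10 had groups that did not overlap, against 18.3% of all genes.

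Gpat3 was at 75.8, 51.6 and 107 CPM in Jmjd1a HY/HY at 30°C and at 158, 169.6 and 231 CPM at 8°C. All cold libraries lay above all warm ones, with a log2 fold change of 1.25 (SE 0.30, fold 2.38) and an adjusted p of 0.114 by edgeR. Across the alternatives that p ranged from 0.00592 to 0.295. Without replicate 3 at 30°C the log2 fold change was 1.55 and the adjusted p 0.0234. With the replicate number as a block, edgeR called it at an adjusted p of 0.0182.

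In the mutant, Agpat2 was at 501, 1635 and 1337 CPM at 30°C and at 1695, 2064 and 2107 CPM at 8°C. The cold libraries were all higher, by 0.76 on the log2 scale (SE 0.35, adjusted p = 0.343 by edgeR), and replicate 1 at 30°C was the only library of that group near the wild-type level. Gpam was at 234, 249 and 307 CPM against 367, 439 and 378 CPM, without overlap, with a log2 fold change of 0.59 (SE 0.20, adjusted p = 0.22 by edgeR). Dgat1 was at 345, 309.9 and 507 CPM against 519, 521 and 569 CPM, also without overlap (log2 fold change 0.47, adjusted p = 0.43 by edgeR).

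For the other 6 genes the groups overlapped. Aqp7 was at 183, 93.3 and 179 CPM against 210.4, 201 and 169 CPM (log2 fold change 0.35, adjusted p = 0.542 by edgeR). Pck1 was at 1303, 184 and 1123 CPM against 1237, 1229 and 1547 CPM (log2 fold change 0.62, interval -0.83 to 2.08). Replicate 2 at 30°C was the low library of that group for both genes. Gpat4, Lpin1, Dgat2 and Mogat1 had log2 fold changes of 0.56, 0.40, 0.01 and 0.35 with adjusted p of 0.381, 0.602, 0.993 and 0.459.

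To ask whether the genotypes differed in the cold, Jmjd1a HY/HY and wild type were compared at 8°C. Gpat3 was higher in Jmjd1a HY/HY and was the 1 gene called. Among all genes tested 1.51% were called higher and 4.42% lower, and 35.4% had groups that did not overlap, against 3 of the 10 (Gpat3 and Dgat2 higher, Agpat2 lower). The median log2 fold change was -0.07 for the 10 genes and 0.012 for all genes.

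The Gpat3 libraries at 8°C were 61.4, 81.8 and 101 CPM in wild type and 158, 169.6 and 231 CPM in Jmjd1a HY/HY. Every Jmjd1a HY/HY library lay above every wild-type one, by 1.19 on the log2 scale (SE 0.30, fold 2.28, adjusted p = 0.035 by edgeR). The call was lost when any single library at 8°C was left out, with adjusted p of 0.128, 0.115 and 0.0624 without wild-type replicate 1, 2 or 3 and 0.071, 0.0633 and 0.138 without Jmjd1a HY/HY replicate 1, 2 or 3, while the log2 fold change stayed between 1.01 and 1.39. In the same comparison 3 of the 8 macrophage markers and 2 of the 8 adipocyte markers were called higher, with sums of 309 to 439 against 206 to 214 CPM and of 37339.8 to 49533 against 30921 to 38071 CPM, and 5 of the 6 thermogenic markers were called lower. Their part in the Gpat3 value was not tested.

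Agpat2 was at 2538, 2508 and 2495 CPM in wild type and at 1695, 2064 and 2107 CPM in Jmjd1a HY/HY at 8°C. The wild-type libraries were all higher, and the log2 fold change was -0.36 (interval -1.12 to 0.40, adjusted p = 0.592 by edgeR). Dgat2 was at 1603, 1584 and 1535 CPM against 1657, 1903 and 2467 CPM, a log2 fold change of 0.35 with an adjusted p of 0.51 by edgeR. The remaining 7 genes had log2 fold changes from -0.56 (Pck1) to 0.07 (Mogat1), and their groups overlapped.

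At 30°C, 0 of the 10 genes were called between the genotypes by edgeR and 0 by DESeq2, and 2 had an unadjusted p under 0.05 (Agpat2 and Dgat2). Of all genes 0.562% were called higher and 0.441% lower. No gene of the 10 had groups that did not overlap, against 18.3% of all genes, and the median log2 fold change was 0.18 against -0.008. Agpat2 was at 598, 445 and 797 CPM in wild type and at 501, 1635 and 1337 CPM in Jmjd1a HY/HY (log2 fold change 0.92, SE 0.35, adjusted p = 0.195 by edgeR). Replicate 1 of Jmjd1a HY/HY lay within the wild-type range while replicates 2 and 3 lay above it, and without replicate 1 the log2 fold change was 1.28 and the adjusted p 0.0248. Dgat2 was at 1192, 860.0 and 1411 CPM against 1211, 2773 and 2005 CPM (log2 fold change 0.79, SE 0.28, adjusted p = 0.173 by edgeR), again with replicate 1 inside the wild-type range.

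The interaction, the cold response of Jmjd1a HY/HY minus that of wild type, tests whether the responses differed. By edgeR 0 of the 10 genes passed an adjusted p under 0.05, DESeq2 also called 0, and 2 had an unadjusted p under 0.05. Of all genes 0.169% were called with a positive and 2.07% with a negative interaction. Gpat3 had an interaction of 1.28 (SE 0.42, interval 0.36 to 2.21, adjusted p = 0.167) and Agpat2 of -1.28 (SE 0.49, interval -2.35 to -0.20, adjusted p = 0.241). With the replicate number as a block, edgeR called the interaction of Gpat3 (adjusted p = 0.0281). Without Jmjd1a HY/HY replicate 1 at 30°C, Agpat2 reached -1.64 with an adjusted p of 0.0157. The interval of the interaction was -0.68 to 0.55 for Gpam, -0.99 to 0.29 for Mogat1, -0.88 to 0.72 for Dgat1 and -1.86 to 2.23 for Pck1, and each includes 0. The comparisons share libraries: cold in wild type and the genotypes at 8°C both use the wild type at 8°C.

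**Figure D2:**
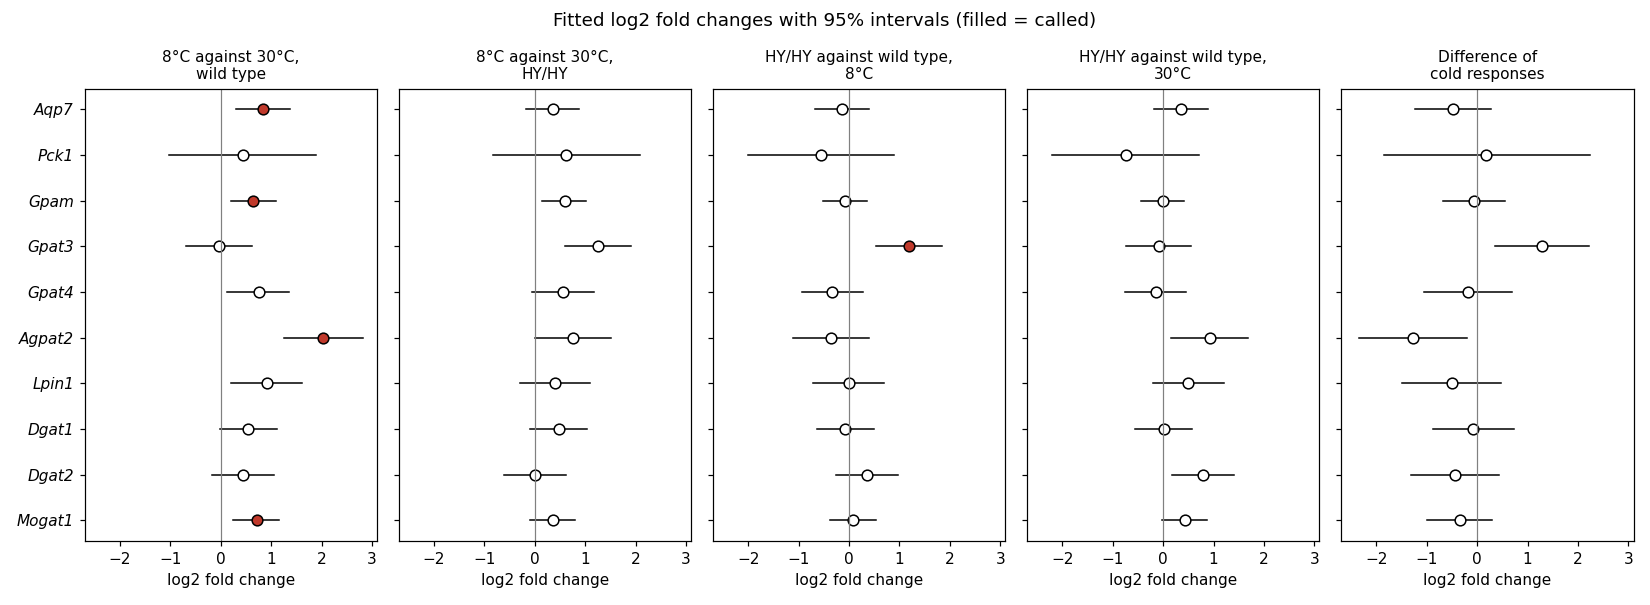
Fitted log2 fold change (x axis) of each gene (y axis) with its 95% interval in the 5 comparisons, filled where called. Of the 10 genes, 4 are filled for cold in wild type and Gpat3 alone for the genotypes at 8°C, where its interval runs from 0.53 to 1.85.

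The rest of the pathway was read from 31 further genes, of which 28 were tested. Cold in wild type raised 10 and lowered 3 of the 28, against 10.3% and 6.93% of all genes tested. The median log2 fold change of the 28 was 0.28, against -0.069 over all genes. Gk, the glycerol kinase, rose from 5.35, 5.02 and 3.88 CPM to 114, 124 and 176 CPM, a log2 fold change of 4.85 (SE 0.31, fold 28.9, adjusted p = 1.21e-05 by edgeR). Gpd1, which makes glycerol 3-phosphate from a glycolytic intermediate, rose from 1360.3, 937 and 1564 CPM to 6504, 7221 and 6375 CPM (log2 fold change 2.38, adjusted p = 0.000557). Every cold library of Gk and Gpd1 lay above every warm one. Gpd2, its mitochondrial counterpart in the glycerol phosphate shuttle, had a log2 fold change of 2.28. Acsl5 and Acsl1, which activate fatty acids, had 2.18 and 1.06, Agpat3 1.53, Plpp1 1.03, Pgp 0.91, Lclat1 0.79 and Bscl2 (seipin, a lipid droplet assembly protein) 0.77. Lpin2 (-0.75), Plpp2 (-0.66) and Pck2 (-0.63) were called lower, although the groups of Lpin2 overlapped. The calls of Pgp, Lclat1 and Bscl2 were lost with library totals in place of TMM.

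In Jmjd1a HY/HY 1 of the 28, Gk, was called in the cold, from 5.15, 6.89 and 7.07 CPM to 35.6, 47.3 and 20.5 CPM (log2 fold change 2.44, SE 0.28, adjusted p = 0.0042 by edgeR). The call was lost in the fit of the compared libraries alone, which called 0 of 15780 genes in this comparison. Of all genes, 0.181% were called higher in this comparison. Acsl1 was at 1205, 1118 and 2382 CPM at 30°C and at 2807, 3236 and 4393 CPM at 8°C in the mutant, without overlap. Its log2 fold change of 1.15 (adjusted p = 0.164 by edgeR) missed the threshold, but it was called by DESeq2, with the replicate block and without Jmjd1a HY/HY replicate 3 at 30°C. At 8°C, 6 of the 28 were lower in Jmjd1a HY/HY (Acsl5 -1.87, Gk -2.00, Gpd2 -1.33, Gpd1 -1.21, Agpat3 -0.74 and Pgp -0.65 on the log2 scale) and 1 was higher, Plpp3 (0.67). Of all genes tested, 4.42% were called lower and 1.51% higher. At 30°C the 1 gene of the 28 called was Lpin2, which was lower (-1.16, adjusted p = 0.0447 by edgeR), against 0.441% of all genes called lower. This call of Lpin2 was lost with library totals, in the fit of the compared libraries alone and in 9 of the 12 fits that left out 1 library. At 30°C the fit of the compared libraries alone called 0 of 16390 genes. DESeq2 also called Plpp3 at 30°C. The interaction was called for 5 of the 28, all negative, against 2.07% of all genes called with a negative one. These 5 were Gk -2.41, Gpd2 -1.96, Acsl5 -1.71, Agpat3 -1.07 and Pgp -0.72. DESeq2 and the replicate block also called Gpd1. When 1 library was left out, the calls among the 28 ranged from 8 to 13 for cold in wild type, 1 to 2 for cold in Jmjd1a HY/HY, 4 to 8 at 8°C, 0 to 2 at 30°C and 3 to 6 for the interaction. Without wild-type replicate 2 at 30°C, the library with the muscle markers, Pck2, Acsl1, Lpin2, Plpp2 and Bscl2 lost their cold calls. At 8°C Gpd1, Agpat3 and Plpp3 lost theirs without wild-type replicate 2 or 3 or Jmjd1a HY/HY replicate 3, and Gpd1, Pgp and Plpp3 without Jmjd1a HY/HY replicate 1. Of the 12 fits that left out 1 library, 7 lost the call of Gpd1 at 8°C. For cold in wild type, 6 of the 12 lost the call of Acsl1, 5 that of Lpin2, 5 that of Plpp2 and 3 that of Bscl2. Only the call of Pck2 was lost in 1 fit alone, the one without wild-type replicate 2 at 30°C.

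**Figure D3:**
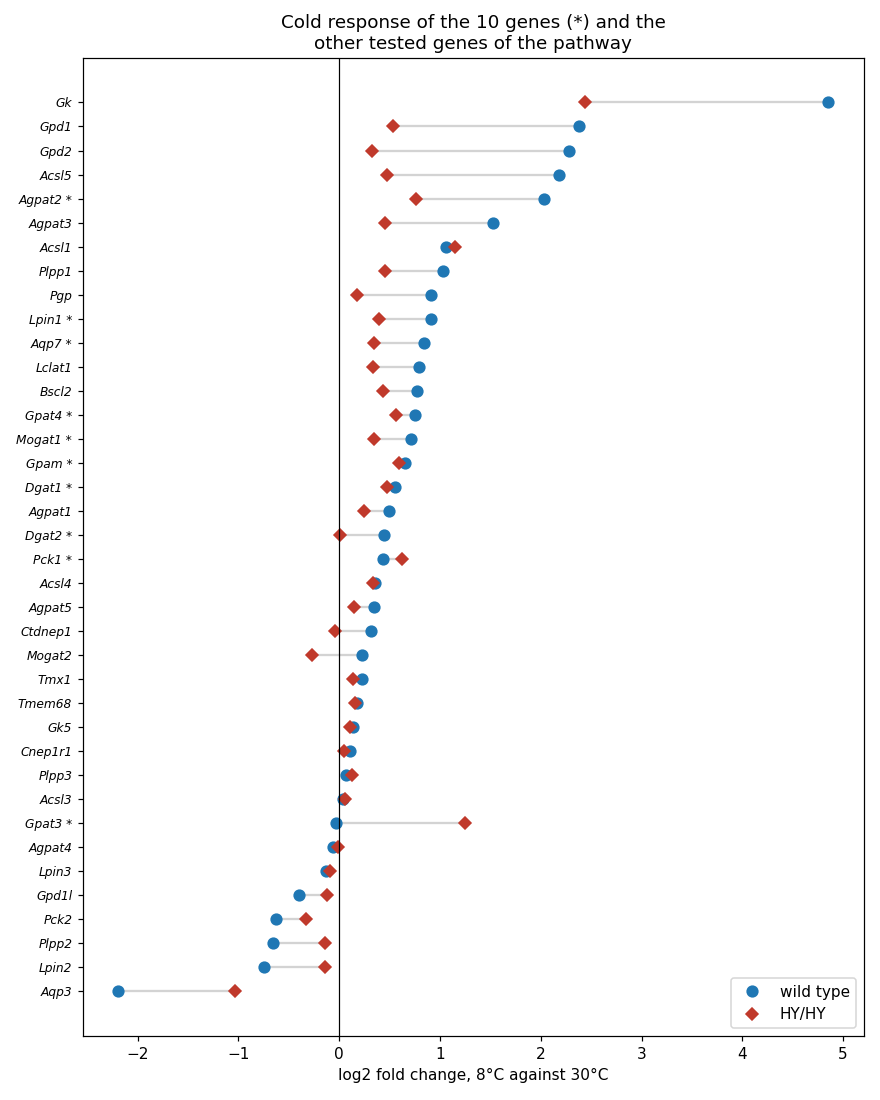
Cold response (log2 fold change of 8°C against 30°C, x axis) of the 10 genes, marked with an asterisk, and the 28 other tested genes of the pathway (y axis), with wild type as circles and Jmjd1a HY/HY as diamonds. Gk is at 4.85 in wild type against 2.44 in the mutant, whereas Gpat3 is at -0.03 and 1.25.

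**Figure D4:**
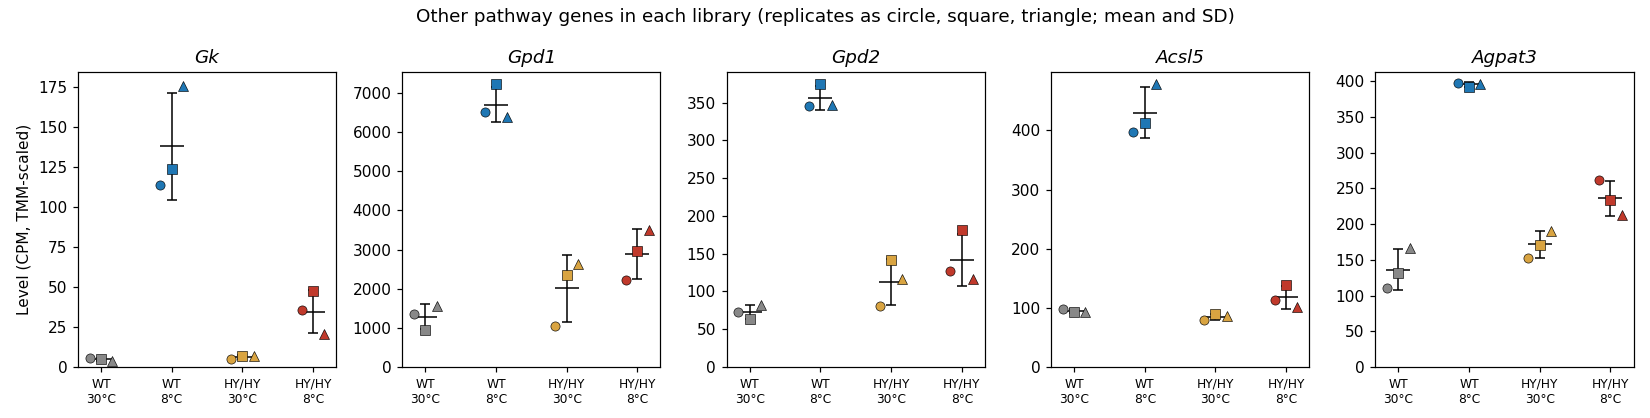
Level (CPM, y axis) of 5 other pathway genes in each library, with the mean and SD of 3 mice per group. Gk is at 114 to 176 CPM in wild type at 8°C and at 20.5 to 47.3 CPM in Jmjd1a HY/HY at 8°C.

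Ratios of 2 genes within a library do not depend on the scaling. With 3 libraries a group, the exact permutation test (two-sided) cannot give a p below 0.1, and the lowest adjusted p over the 24 tests made was 0.24. Gpat3 over Gpam had a mean log2 ratio of -1.68 in wild type at 30°C and -2.38 at 8°C, and of -1.80 and -1.10 in Jmjd1a HY/HY. At 8°C all 3 mutant libraries lay above the wild-type ones (exact p = 0.1, adjusted p = 0.24). Agpat2 over Agpat1 was 2.52 at 30°C and 4.08 at 8°C in wild type, against 3.52 and 4.17 in the mutant. Pck1 over Gk was 7.99 and 3.70 in wild type, against 6.67 and 5.35 in the mutant, with an exact p of 0.1 between the genotypes at 8°C. Lpin1 over Lpin2 was 1.20 and 2.91 in wild type, against 2.80 and 3.45 in the mutant. Dgat2 over Dgat1 was 1.63 and 1.48 in wild type, against 2.32 and 1.89 in the mutant. Gpat4 over Gpam had group means between -0.74 and -0.44, with single libraries from -1.23 to -0.33. An exact p of 0.1 was also reached between the genotypes at 8°C by Lpin1 over Lpin2 and Dgat2 over Dgat1. For cold in wild type it was reached by Gpat3 over Gpam, Agpat2 over Agpat1, Lpin1 over Lpin2 and Pck1 over Gk. Gpat3 over Gpam reached it for cold in Jmjd1a HY/HY, and Agpat2 over Agpat1 between the genotypes at 30°C.

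**Figure D5:**
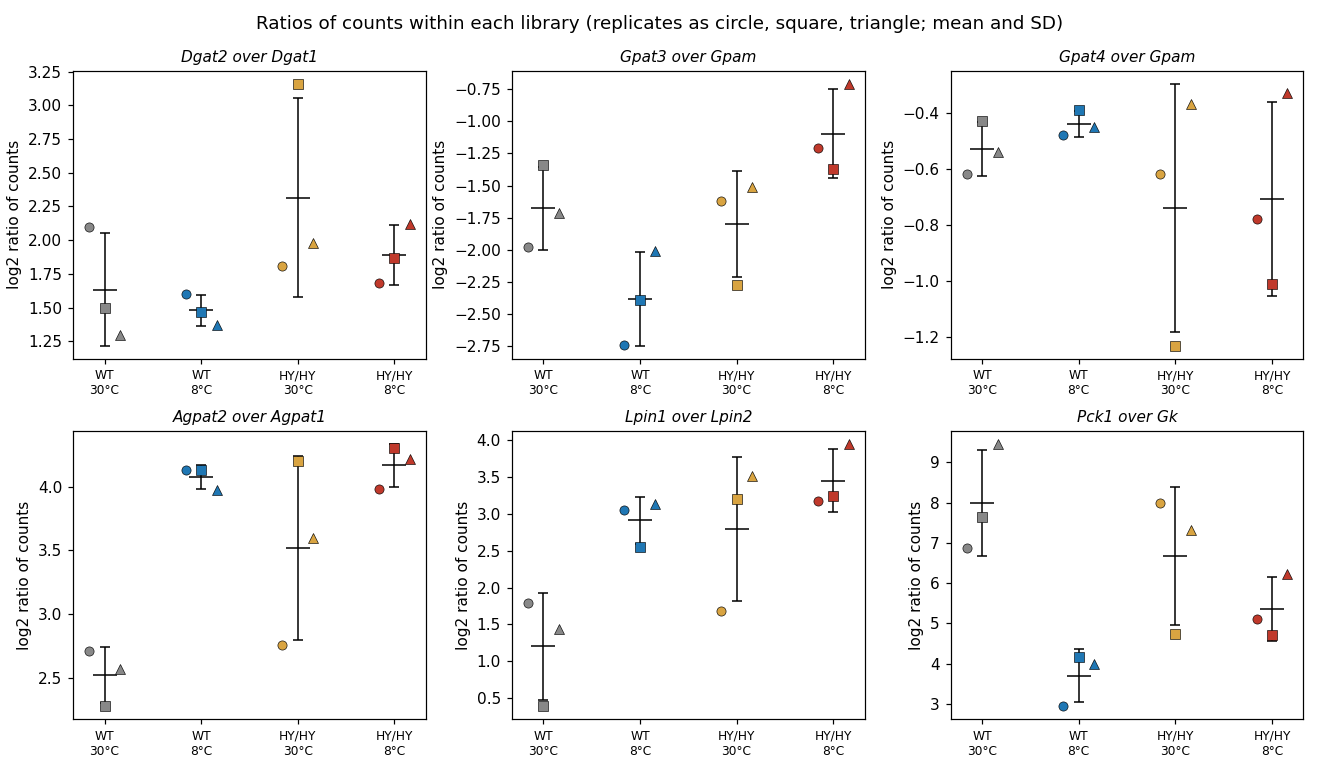
Log2 ratio of counts of 2 genes in each library (y axis) by group (x axis), with mean and SD. For Gpat3 over Gpam the mean at 8°C is -2.38 in wild type against -1.10 in the mutant.

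The gene whose log2 CPM, centred over the 12 libraries, was closest to each member was found among 14970 tested genes with a symbol, by the root mean square difference. It was Mgll for Aqp7 (0.167), Fbxo21 for Pck1 (0.439), Adck1 for Gpam (0.134), Sulf2 for Gpat3 (0.211), Dnajc28 for Gpat4 (0.12), Dlat for Agpat2 (0.19), P2ry2 for Lpin1 (0.205), Sod1 for Dgat1 (0.108), Tmem120b for Dgat2 (0.159) and Bscl2 for Mogat1 (0.119). By this measure Pck1 had the largest difference from its neighbour and Dgat1 the smallest. The difference also depends on how much a member itself varied, by a root mean square of 1.01 for Pck1 and 0.401 for Dgat1.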

How the data were processed

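RNA of scWAT from 12 mice was sequenced as paired reads. The authors trimmed the reads with fastp, aligned them to mm10 with STAR and used the GENCODE M25 annotation, and the deposited files hold counts of read pairs per gene, unnormalized and unfiltered, with a column for the 2 strands combined and 1 for each. The labels name FastQC and StringTie as tools, and the program that made the counts is not given in the sources used here. The column of the sense strand was used, which had 95.5% to 96.2% of all gene counts. Entries that name no gene (25.1% to 28.8% unaligned, 26.7% to 32.2% aligned to several places, 1.99% to 3.2% outside genes, 0.93% to 1.1% ambiguous) entered neither library sizes nor tests. Genes with near-identical copies are undercounted because pairs aligned to several places were not counted.

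Of 55401 gene IDs, 29858 were given a symbol. The 2731 IDs that share one were left without a symbol but stayed in the counts. In R 4.3.3 with edgeR 4.0.16, filterByExpr kept 16540 genes, TMM factors ranged from 0.859 to 1.17, and the quasi-likelihood fit took the 4 group means over the 12 libraries (8 residual degrees of freedom, common coefficient of variation 20.7%). Two-sided p-values were adjusted over all genes kept by Benjamini-Hochberg. CPM are TMM-scaled, and log2 CPM used a prior count of 2 and the ratios a pseudocount of 0.5. Exon lengths came from an earlier GENCODE release, so levels per kb are approximate. Nothing in the labels says how the 3 mice of a group relate, so p-values measure only the spread between these libraries. Same-numbered libraries of Jmjd1a HY/HY at 30°C and 8°C deviated together in all 3 pairs (correlations of 0.112 to 0.303). No other pair of groups had all 3 above 0.1. Blocked values are therefore given beside calls they change in that comparison and the interaction. The interaction also uses the wild type at both temperatures, where these correlations were -0.044 to 0.139. The block was chosen from these same data and rests on no pairing in the labels. The members and gene lists were chosen with earlier results of these data known. The genes named are the 10 members, all called genes of the further pathway list, the closest gene to each member and Kdm3a. Outside this rule, Agpat1 is named in a ratio and Adipoq, Plin1, Fabp4, Cfd, Ucp1 and Cidea as examples of marker lists. Promoters were searched for 9 common motifs. The model was also run on simulated data, and no outcome of that run is given here. DESeq2 1.42.0, other scalings and filters, both strands, the replicate block and each library left out in turn were tried as alternatives.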

Additional observations from a re-analysis of the deposited data

Results flagged for a closer look

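By the interaction test of edgeR over all genes, a difference in cold response was called for 5 of the 28 further pathway genes tested. It was called for none of the 10 described above, although the intervals of Gpat3 (0.36 to 2.21) and Agpat2 (-2.35 to -0.2) excluded 0. Of all genes, 2.07% were called with a negative and 0.169% with a positive interaction. The response of Jmjd1a HY/HY minus that of wild type was -2.41 on the log2 scale for Gk (adjusted p = 0.0133), -1.96 for Gpd2 (0.0113), -1.71 for Acsl5 (0.00471), -1.07 for Agpat3 (0.0305) and -0.72 for Pgp (0.049). The calls of Agpat3 and Pgp were lost with library totals in place of TMM, and in 9 and 11 of the 12 fits that left out 1 library. Of the 6 markers of thermogenic adipocytes, 5 were called lower in Jmjd1a HY/HY at 8°C and 1 had a called interaction, also negative, and their part in these values was not tested.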

How the results depend on the processing

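For the 10 genes, 990 values were recomputed under the alternatives, of which 901 kept their direction and side of the threshold, 23 lost and 21 gained a call, and 45 changed sign, none of them called. Cold in wild type gave 4 calls, 6 with DESeq2, without a filter, in the fit of the compared libraries alone and with the replicate block, 1 with library totals and 1 to 7 when 1 library was left out. Over all genes, cold in wild type gave 1707 calls higher and 1147 lower, 1915 and 1210 with DESeq2, and 1057 and 4144 with library totals. Cold in Jmjd1a HY/HY gave 0, and 1 (Gpat3) with DESeq2, without a filter and with the replicate block, and 0 to 1 when 1 library was left out. Over all genes, this comparison gave 30 calls higher, 216 with DESeq2, 101 of 31016 without a filter and 128 with the replicate block. The genotypes at 8°C gave 1 call and at 30°C 0, with 0 to 1 in both when 1 library was left out. The interaction gave 0, 1 (Gpat3, adjusted p = 0.0281) with the replicate block, and 0 to 1 when 1 library was left out. Positive interactions over all genes numbered 28, and 57 with the replicate block. The replicate block also called Gpat4 (log2 fold change 0.81) and Dgat1 (0.62) for cold in wild type. The cause was not tested. Libraries of the same number deviated from their group means with correlations of -0.069 to 0.35 (11 of 18 over 0.1), and the own number correlated best in 23 of 36 cases. The labels tie the numbers to no shared animal, litter or day, so a factor shared by number is a hint from the data and was not tested.

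Among log2 fold changes that changed sign, DESeq2 gave 0 for Gpat3 in cold wild type. Library totals gave -0.12 for Dgat2 in cold HY/HY, 0.01 for Aqp7, 0.06 for Gpam, 0.12 for Lpin1 and 0.06 for Dgat1 at 8°C, -0.06 for Dgat1 at 30°C, and interactions of 0.14 for Gpam, 0.03 for Gpat4 and 0.12 for Dgat1. No filter gave -0.01 for Dgat2 in cold HY/HY and 0.01 for Gpam at 30°C, and 10 counts in every library gave 0 for Dgat2. Fits to the compared libraries alone gave 0 for Lpin1 at 8°C and 0.01 for Gpam at 30°C, as did the replicate block for Gpam. With 1 library left out, the ranges were -0.23 to 0.41 (Dgat1), -0.15 to 0.29 (Gpam), -0.38 to 0.17 (Gpat3), -0.5 to 0.15 (Gpat4) and -1.15 to 0.09 (Pck1) at 30°C, -0.1 to 0.15 (Lpin1) and -0.01 to 0.17 (Mogat1) at 8°C, -0.25 to 0.23 (Gpat3) in cold wild type, -0.25 to 0.32 (Dgat2) in cold HY/HY, and -0.49 to 0.16 (Dgat1), -0.37 to 0.07 (Gpam), -0.48 to 0.17 (Gpat4) and -0.65 to 0.6 (Pck1) for the interaction.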
